A study of Rattus norvegicus with 6 samples.

Results

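Two-interval genes with far-apart sites are genes for which the deposited list of N6-methyladenosine (m6A) intervals holds exactly 2 entries that lie more than 5000 bp apart on the chromosome. They were chosen by measured values of the list itself, the number of intervals, their widths and the gap between them. Both intervals had to be listed with no other gene, to be at most 1000 bp wide and to have a width that is an exact multiple of 25 bp, called whole-step here. The rule found 576 genes among the 13146 in the list (4.38%), with 1152 of its 29268 distinct intervals. They are called far-gap genes and were set against 905 genes that met the same conditions with a gap of at most 1000 bp, called near-gap genes. A further 208 such genes had a gap in between, above 1000 and up to 5000 bp.

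The samples were penile tissue of male Sprague-Dawley rat fetuses, taken at GD19.5, where GD counts gestational days, and profiled by methylated RNA immunoprecipitation sequencing, in which an antibody pulls down RNA fragments that carry m6A. The case group held 3 samples and the control group 3. Per the design text, the mothers were gavaged daily on gestational days 12 to 19 with DEHP, di-(2-ethylhexyl) phthalate, or with its corn oil vehicle. DEHP softens plastics and is known to lower androgen action in the male fetus. Tissue came from fetuses with hypospadias, in which the urethra opens below the tip of the penis, or from normal fetuses. The titles say case and control only. No dose is given in the sources used here, nor whether a sample is 1 fetus or a pool. The deposited list is 1 table for the whole series with 0 columns of values per sample. Case and control were therefore not compared for any of these genes, the depth behind an interval is unknown, and an entry does not tell in which group it was found. The tissue label could not be checked against marker genes, because the list gives Ensembl gene IDs without symbols or levels.

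As background, m6A is written on nascent messenger RNA by a methyltransferase complex built on METTL3 and METTL14, and is read by proteins of the YTH family that affect splicing, translation and decay. In mammalian messenger RNA it is known to gather in long internal exons, around stop codons and in 3' untranslated regions, and to be sparse close to exon junctions. Antibodies against m6A also bind m6Am, a related mark next to the cap at the 5' end of the transcript. Which of these positions an interval occupies was not determined here, since no annotation or sequence of the list's build was used.

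The 3' interval was the wider one in most of the 576 genes. No such excess was detected once the rule's limits on width and step were lifted together. Width was used to choose the members, so their widths are given as a description with no test, and tests are given only for unshared two-interval genes of any width. The 95% intervals printed for members, near-gap genes and other sets limited in width or step describe those chosen genes. They are not tests of a difference. Oriented by the strand of the gene, the 3' interval was wider in 399 genes, the 5' interval in 145, and 32 genes had equal widths. Among genes with unequal widths the share wider at the 3' end was 73.3% (95% Wilson interval 69.5 to 76.9). The median width was 275 bp at the 3' end and 150 bp at the 5' end. Quartiles were 175 and 400 bp at the 3' end, against 75 and 225 bp at the 5' end. Mean widths were 308 bp (SD 194, n = 576 genes) at the 3' end and 178 bp (SD 128, n = 576 genes) at the 5' end. Within a gene the median difference, 3' minus 5', was 125 bp (95% distribution-free interval 100 to 125).

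The form that the rule asks of an interval removed more genes through the 5' end than through the 3' end, and the excess at the 3' end depends on it. Of 1117 unshared two-interval genes with a gap above 5000 bp, 541 (48.4%) were left out because of width. In 357 of these only the 5' interval failed, in 114 only the 3' interval, and in 70 both did. Where only the 5' interval failed, its median was 3623 bp, against 275 bp for the 3' interval of the same genes, and the 5' interval was the wider one in 329 of the 357. Of these 357 failing 5' intervals, 344 were not whole-step. Where only the 3' interval failed, its median was 1124 bp, against 150 bp at the 5' end. With intervals of any width and step allowed, the 3' interval was wider in 552 genes and the 5' interval in 532, a share of 50.9% (95% Wilson interval 47.9 to 53.9; exact two-sided binomial test over genes, adjusted p = 0.989). A width is a distance on the chromosome, and any intron inside it was not identified. The excess at the 3' end was thus not detected over all far-apart pairs, with the limits on width and step lifted together. With the limit of 1000 bp kept and any step allowed, a setting chosen after seeing the data, the share was 69.0% (95% Wilson interval 65.4 to 72.4). With any whole-step width, also chosen after seeing the data, it was 72.3% (68.6 to 75.8).

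In near-gap genes the counts for the ends were nearly equal. The 3' interval was wider in 423 of them, the 5' interval in 420, and 62 were equal. The share wider at the 3' end was 50.2% (95% Wilson interval 46.8 to 53.5). Their median widths were 200 bp at the 3' end and 225 bp at the 5' end. The share in far-gap genes was 23.2 percentage points above that in near-gap genes, a difference between classes that the width form had thinned unequally. For these chosen genes it is a description only. Without limits on width and step this difference was 1.51 percentage points (95% Newcombe interval -2.60 to 5.62; two-sided Fisher's exact test on counts of genes, adjusted p = 0.989). Of 1250 unshared near-gap pairs, the width form left out 345 (27.6%), 143 through the 5' interval only and 150 through the 3' interval only.

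**Figure D1:**
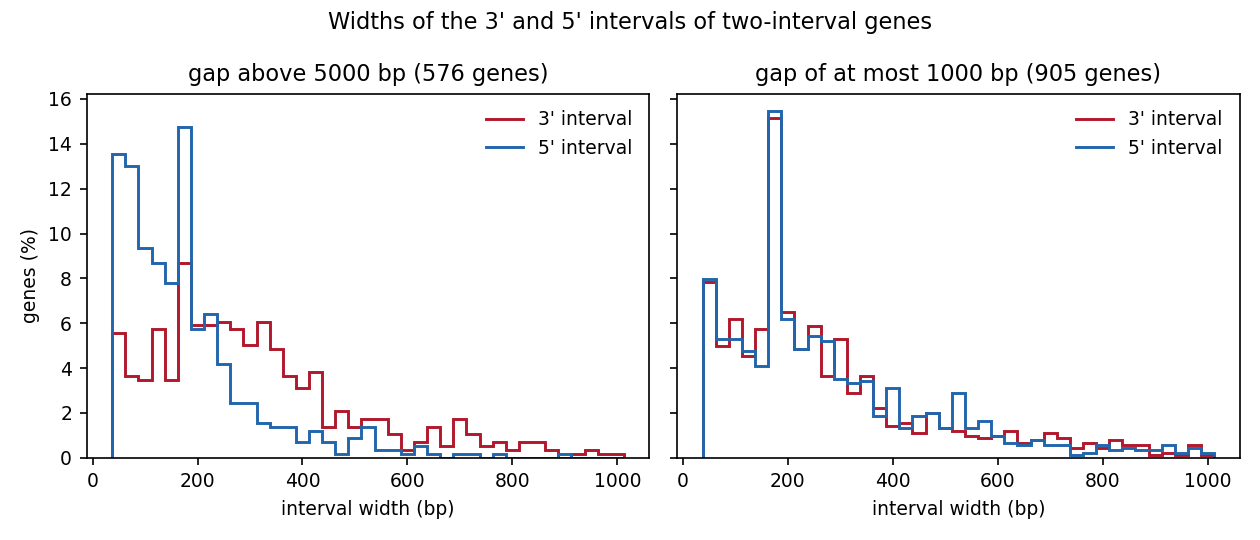
Widths of the 3' (red) and 5' (blue) intervals in steps of 25 bp, as a percent of genes, for the 576 genes with a gap above 5000 bp (left) and the 905 with a gap of at most 1000 bp (right). In the left panel the 5' intervals pile up at narrow widths and the 3' intervals reach further right, with medians of 150 and 275 bp. In the right panel the curves lie close together.

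Among the members the ends differed in narrow as well as wide intervals. Only the count of narrow ones kept its direction when the limits on width and step were lifted together. At the narrow end, 32 of the 3' intervals (5.56%, 95% Wilson interval 3.96 to 7.74) and 78 of the 5' intervals (13.5%, 11.0 to 16.6) had the narrowest width in the list, 50 bp. Only the 3' interval was this narrow in 28 genes and only the 5' interval in 74. With no limits on width and step these counts were 45 and 88 genes, a share of 33.8% for the 3' end (95% Wilson interval 26.3 to 42.2; exact binomial test, adjusted p = 0.00109). Widths of up to 100 bp made up 12.7% of 3' intervals, against 35.9% of 5' intervals. At the wide end, 91 of the 3' intervals (15.8%) and 26 of the 5' intervals (4.51%) were 500 bp or more. Only the 3' interval reached this width in 86 genes and only the 5' interval in 21 (80.4% for the 3' end, 95% Wilson interval 71.9 to 86.8). With no limits on width and step the order at the wide end turned round, with 185 genes for the 3' interval only and 296 for the 5' interval only (exact binomial test, adjusted p = 4.26e-06).

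The most frequent width of the whole list, 175 bp, was also the most frequent at each end of these genes. It was found in 50 of the 3' intervals (8.68%) and 85 of the 5' intervals (14.8%). Only the 3' interval had it in 42 genes and only the 5' interval in 77. With no limits on width and step the counts were 74 and 95 (exact binomial test, adjusted p = 0.371), which did not pass the test. In near-gap genes 175 bp took 15.1% of 3' intervals and 15.5% of 5' intervals. Their narrowest intervals were likewise even, with 61 genes where only the 3' interval had 50 bp and 62 where only the 5' interval did. Intervals of 500 bp or more stood at the 3' end only in 101 near-gap genes and at the 5' end only in 105.

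By median width, lone intervals lay between the ends of the far-gap genes. Unshared whole-step intervals of up to 1000 bp in genes with 1 interval numbered 3216 and had a median of 175 bp, against 275 bp at the 3' end and 150 bp at the 5' end of the far-gap genes. Intervals of 500 bp or more made up 15.8% at the 3' end and 4.51% at the 5' end, against 10.2% of lone intervals. The narrowest width made up 5.56% at the 3' end and 13.5% at the 5' end, against 7.15% of lone intervals. These comparisons with lone intervals are descriptions and were not tested.

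Among the members, whose widths the rule limits, large differences within a gene were mostly toward the 3' end. With no limits on width and step, only the 3' interval reached 500 bp in 185 genes and only the 5' interval in 296. The 3' interval was at least 2 times as wide as the 5' interval in 268 of the 576 genes (46.5%), and the 5' interval at least 2 times as wide in 68 (11.8%). In near-gap genes these counts were 204 (22.5%) and 214 (23.6%). A difference of 200 bp or more favoured the 3' end in 194 far-gap genes and the 5' end in 36. Differences of a single step of 25 bp did not lean the same way, with 20 genes wider at the 3' end and 31 at the 5' end. Summed over the 576 genes, the 3' intervals covered 177600 bp and the 5' intervals 102525 bp, so 63.4% of the covered length lay at the 3' end. In near-gap genes that share was 49.8%.

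**Figure D2:**
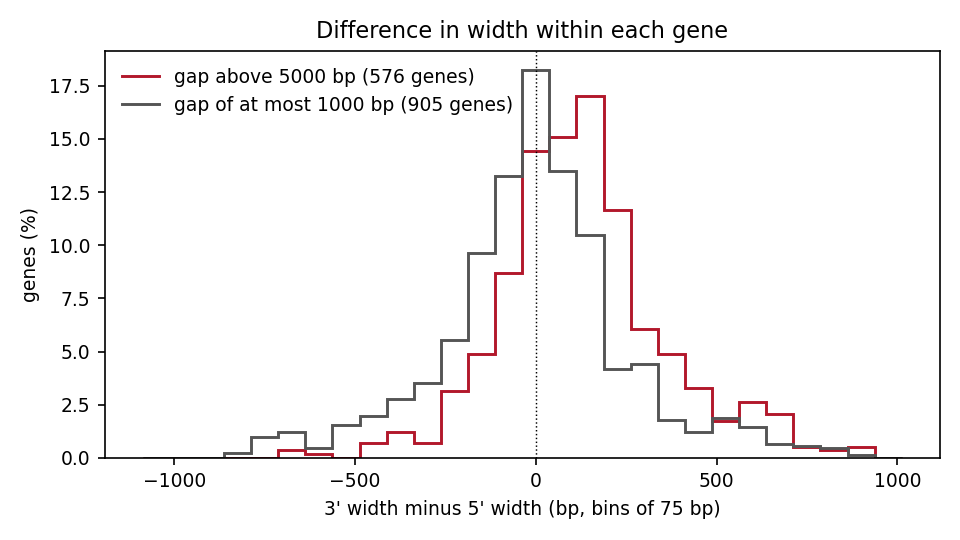
Width of the 3' interval minus width of the 5' interval in the same gene, in bins of 75 bp centred on 0, as a percent of genes with a gap above 5000 bp (red, 576 genes) and of at most 1000 bp (grey, 905 genes). The red curve is shifted to the right, with a median of 125 bp and 399 genes above 0 against 145 below, and the grey curve has its median at 0 bp.

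Within the limits of the rule on width, a wide 3' interval did not go with a wide 5' interval in the far-gap genes. Across the 576 genes Spearman's rho between the 3' and the 5' width was 0.01, against 0.20 across the 905 near-gap genes. These are descriptions across genes of 1 list, which are not independent replicates. The correlation was not computed without the limits on width and step. The 78 genes with a 5' interval of 50 bp had a median 3' width of 275 bp, and the 74 genes with a 5' interval of 275 to 500 bp had the same median 3' width, 275 bp. Of the 3' intervals, 214 (37.2%) were 275 to 500 bp wide and 83 (14.4%) were 525 to 1000 bp, against 74 (12.8%) and 21 (3.65%) of the 5' intervals.

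Among the members, the 3' interval was the wider one in most genes of each strand. The members were divided between 282 genes on the plus strand and 294 on the minus strand. On the plus strand the 3' interval was wider in 197 genes and the 5' interval in 65, a share of 75.2% (95% Wilson interval 69.6 to 80.0). On the minus strand the counts were 202 and 80, a share of 71.6% (66.1 to 76.6). With strand left out, the interval at the higher coordinate was wider in 277 genes and the one at the lower coordinate in 267 (50.9%, 46.7 to 55.1). These 277 and 267 genes follow from the counts per strand, so they are no separate check. With no limits on width and step, the share was 50.9% for the 3' interval and 50.3% for the interval at the higher coordinate.

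Gaps of the members reached from 5027 to 993115 bp, with a median of 22719 bp and quartiles of 11425 and 49088 bp, and 52 genes (9.03%) had a gap above 100000 bp. Just inside the limit of 5000 bp lay genes with gaps of 5027, 5046 and 5107 bp, and just outside it genes with gaps of 4970, 4940 and 4907 bp. In each of these 6 genes the 3' interval was the wider one, as it was in most members. At the limit on width, 1 member held an interval of exactly 1000 bp, 1 gene was left out for one of 1025 bp, and 31 genes in all were left out only for a whole-step interval wider than 1000 bp.

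Among genes that meet the width form, the share wider at the 3' end lay above 50% in each band of gap above 2000 bp. The width form left out 48.4% of unshared pairs with a gap above 5000 bp and 27.6% of near-gap pairs. Shares by band were not computed without it, so they are descriptions only. In the 5 bands of gap up to 1000 bp the share wider at the 3' end lay between 44.9% and 59.1%. It was 50% (39.7 to 60.3) for gaps above 1000 and up to 2000 bp and 66.1% (56.8 to 74.3) up to 5000 bp. Among the far-gap genes it was 75.9% (67.3 to 82.7) up to 10000 bp, 72.0% (63.8 to 78.9) up to 20000 bp, 70.4% (62.9 to 76.9) up to 50000 bp, 74.4% (64.3 to 82.5) up to 100000 bp and 79.2% (65.7 to 88.3) beyond. The intervals of these last 5 bands all overlapped, and differences between them were not tested. The median 5' width was 150 bp in each far-gap band up to 100000 bp and 175 bp beyond, and the median 3' width was between 250 and 300 bp.

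**Figure D3:**
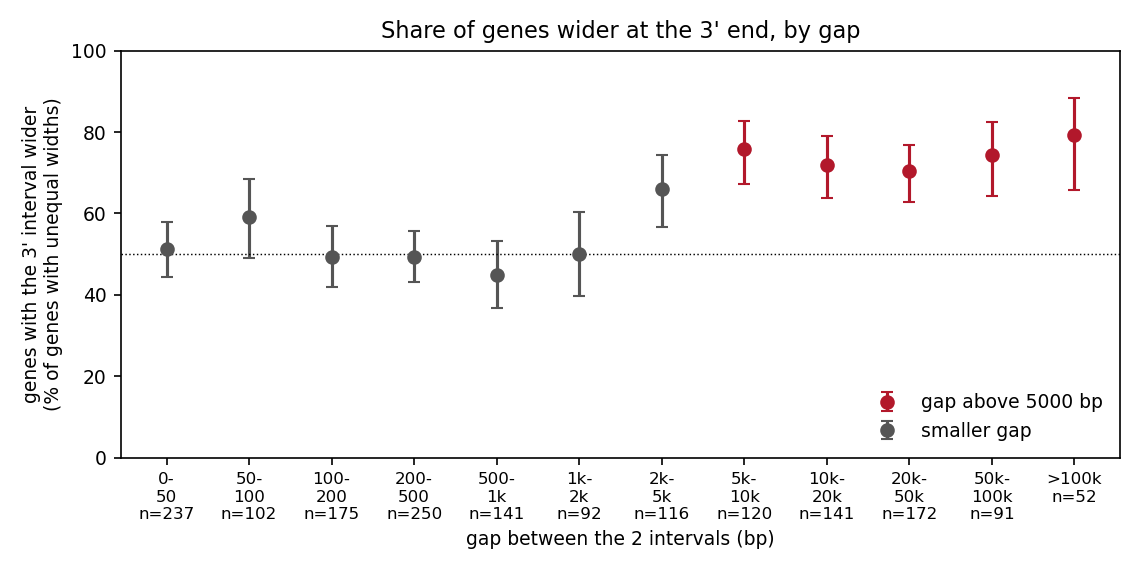
Share of genes whose 3' interval is the wider one, as a percent of genes with unequal widths, by the gap between the intervals, with 95% Wilson intervals. The n under each band counts all of its genes, and the dotted line marks 50%. The 5 bands above 5000 bp (red) lie between 70.4% and 79.2%, the grey band below them is at 66.1%, and the 6 bands up to 2000 bp lie between 44.9% and 59.1%.

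Intervals of a far-gap gene rarely shared a grid. The distance between both starts was divisible by 25 in 25 of the 576 genes (4.34%), where evenly spread starts give 4%, and in 872 of the 905 near-gap genes (96.4%). Among the 25 far-gap genes on a common grid the 3' interval was wider in 20 and the 5' interval in 4, and among the other 551 in 379 and 141 (72.9%, 95% Wilson interval 68.9 to 76.5). Among the 208 genes with gaps above 1000 and up to 5000 bp the values of the 2 kinds lay apart. The 148 genes off a common grid had the wider interval at the 3' end in 96 cases and at the 5' end in 42 (69.6%, 61.4 to 76.6). The 60 genes on a common grid had it at the 3' end in 19 cases and at the 5' end in 38 (33.3%, 22.5 to 46.3). This split by grid was made after seeing the data and was not tested. What a break in the grid stands for was not checked against annotation.

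**Figure D4:**
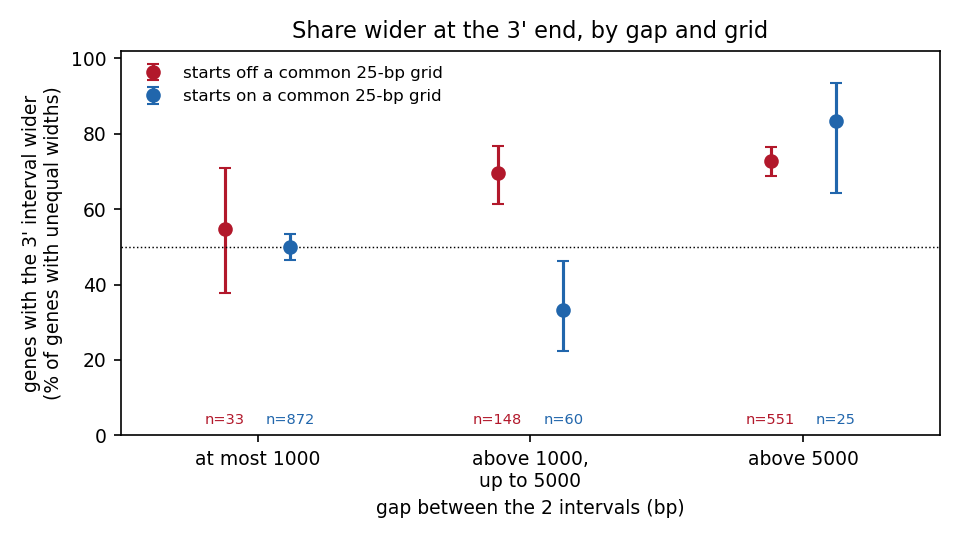
Share of genes whose 3' interval is the wider one, as a percent of genes with unequal widths, by gap and by whether the starts of both intervals lie on a common 25-bp grid (blue) or not (red), with 95% Wilson intervals and the number of genes of each kind. Among gaps above 1000 and up to 5000 bp, genes off a common grid are at 69.6% and genes on one at 33.3%.

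Outside the pair, the nearest listed interval was a median of 39791 bp away beyond the 3' interval and 68300 bp beyond the 5' interval. Near-gap genes had like distances, 44127 bp beyond the 3' interval and 70903 bp beyond the 5' interval. A listed interval within 2000 bp was found beyond the 3' interval in 22 far-gap genes (3.83%) and beyond the 5' interval in 19 (3.31%).

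Far-gap genes lay on all 20 autosomes and X. Chromosome 1 held the most, 60 genes, followed by chromosome 3 with 53 and chromosome 5 with 49. As a share of the genes listed on a chromosome they ranged from 2.64% on chromosome 20 to 5.90% on chromosome 13, with 20 of 414 (4.83%) on X. The 3' interval was wider in more genes than the 5' interval on each of the 21 chromosomes, from 11 against 9 genes on chromosome 16 (55.0%) to 16 against 0 on chromosome 9. These counts describe members chosen on width, and no counts per chromosome were made without the limits on width and step.

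**Figure D5:**
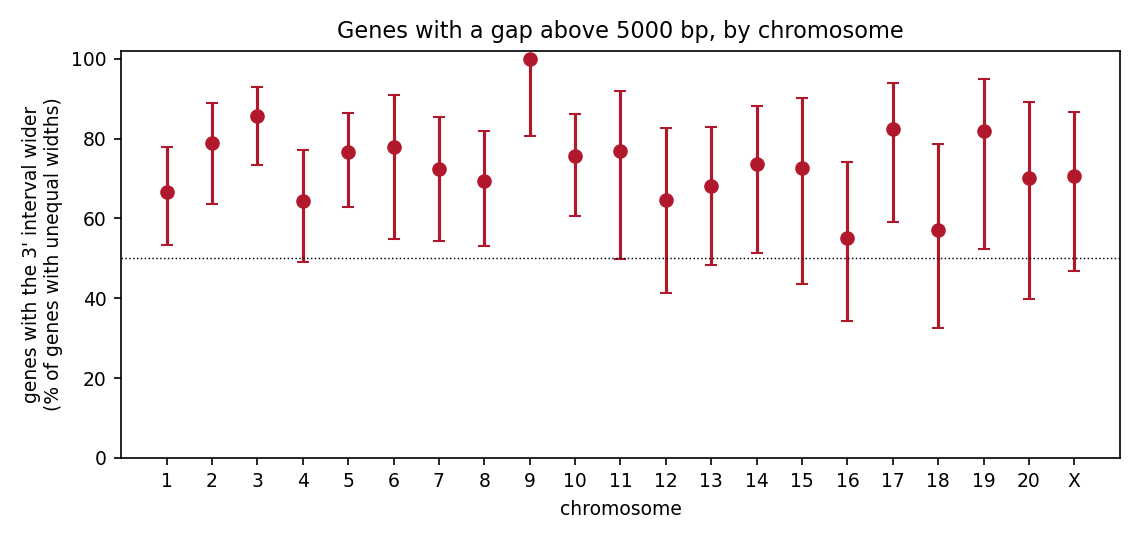
Share of the 576 genes with a gap above 5000 bp whose 3' interval is the wider one, as a percent of those with unequal widths, by chromosome, with 95% Wilson intervals. The points lie above 50% (dotted line) on all 21 chromosomes, from 55.0% on chromosome 16 to 100% on chromosome 9, where 16 genes had unequal widths. The Wilson interval lies wholly above 50% on 12 of them.

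Individual genes are given by Ensembl ID, with starts shifted by 1 from the list so that positions count from 1, on a build that the file does not name. ENSRNOG00000046660, on the plus strand of chromosome 15, had the largest gap, 993115 bp. Its 3' interval spanned 95023624 to 95023948, a width of 325 bp, and its 5' interval 94030334 to 94030508, a width of 175 bp. ENSRNOG00000006033, on the plus strand of chromosome 14, had the smallest gap, 5027 bp. Its 3' interval spanned 77517353 to 77517702 (350 bp) and its 5' interval 77512201 to 77512325 (125 bp). Both genes were wider at the 3' end, by 150 and 225 bp, as were 399 of the 576 members.

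The extremes of the difference in width lay on the minus strand. ENSRNOG00000046112, on chromosome 1, had the largest excess at the 3' end, 925 bp. Its 3' interval reached from 80792000 to 80792999, 1000 bp, which is the limit of the rule, and its 5' interval from 80800247 to 80800321, 75 bp, across a gap of 7247 bp. ENSRNOG00000053680, on chromosome 10, had the largest excess at the 5' end, with a difference, 3' minus 5', of -700 bp. Its 3' interval reached from 89239017 to 89239216, 200 bp, and its 5' interval from 89324587 to 89325486, 900 bp, across a gap of 85370 bp. It is 1 of the 36 far-gap genes in which the 5' interval was wider by 200 bp or more.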

How the data were processed

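The submitters' processing notes name HISAT2 as a tool and Rnor_6.0 as a build. The sources used here do not give the peak caller, its threshold, the annotation or any pooling. Per the file headers, the deposited list has 5 columns: chromosome, start, end, Ensembl gene ID and strand of the gene. Its values are positions in bp, another kind of unit than a count or signal. Starts were read as counting from 0. The build of the positions is unsettled, and the RefSeq table of assembly GRCr8 has 0 rows with an Ensembl ID, so genes were not named and no sequence was read.

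The members and comparisons were chosen with earlier results of these data known. Ends were compared within a gene by exact two-sided binomial tests over genes that differ, and gap classes by Fisher's exact test. The 9 p-values of a setting were adjusted together (Benjamini-Hochberg, threshold 0.05). The rule selects on width, so p-values are printed only for the setting without limits on width and step. The unit is a gene of 1 list, so p-values and intervals carry nothing about the spread between animals. Named genes are the extremes of gap and of width difference. Functions were tested on simulated data. Python 3.11.15, numpy 2.4.6, pandas 2.3.3, scipy 1.17.1 and matplotlib 3.10.9 were used.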

Additional observations from a re-analysis of the deposited data

How the results depend on the processing

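No paired analysis was possible because the list holds no values per sample, and replicates could not be left out for the same reason. Of 13 alternatives, 10 were planned and 3 were chosen after seeing the data (any whole-step width, widths up to 1000 bp whatever the step, and X-linked and mitochondrial genes left out). They gave 93 values, of which 77 kept direction and side of the threshold. Most of these values come from settings that keep a limit on width or step, so the count is no measure of support. Such settings share the members' selection on width, so they do not bear on that selection. With no limit on width or step, the share of far-gap genes wider at the 3' end was 50.9%, its difference from near-gap genes 1.51 points, and the share for the most frequent width 43.8%. None of these passed, while that for intervals of 500 bp or more reversed to 38.5%. The setting adds the wide intervals described above by construction. With widths up to 500 bp the share for 500 bp or more was 63.6%, over 11 genes, and on the minus strand the share for the most frequent width was 38.9%. The cause of the last was not tested. The other reversals were in near-gap genes, where neither value passed. The share wider at the 3' end was 47.4% on the plus strand, 49.4% with no limits and 49.4% up to 1000 bp whatever the step. For the narrowest width it was 51.2% with any whole-step width, 51.3% with no limits and 50.5% up to 500 bp. For 500 bp or more it was 50.6% with any whole-step width, 50.4% on the minus strand, 52.7% with near gaps up to 200 bp and 50.7% with shared intervals. The share of far-gap genes wider at the 3' end otherwise ran from 69.0% to 75.2%. Leaving out genes with another gene's interval between theirs could not act, since no far-gap or near-gap gene had one. Why none did was not tested. What depth limits could not be assessed.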
